A study of Mus musculus with 38 samples.

Results

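The genes described here encode the secreted and membrane-bound metalloproteinases that cut the extracellular matrix, together with their inhibitors. They were chosen by name: every gene whose symbol on the array starts with Mmp plus a digit, is Timp1, Timp2, Timp3 or Timp4, or starts with Adamts. This gave 46 genes, namely 20 Mmp, 4 Timp, 17 Adamts and 5 Adamts-like (Adamtsl) genes, out of 30653 entries of which 19087 are named genes. They were read by 83 of the array's 45220 features, a feature being a spot with its probe. The features of a gene were averaged. A further 5 genes of the family (Adamts2, Adamts17, Mmp15, Mmp1b and Mmp27) were not analysed here. The names were the only criterion for a gene to be a member. The family itself, the lists and the tests were chosen with earlier results of these data known.

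Matrix metalloproteinases are zinc enzymes made as inactive precursors, and their activity depends on the removal of a propeptide, often by plasmin, furin or another metalloproteinase. Tissue inhibitors of metalloproteinases (Timp proteins) bind the active site of the processed enzymes. Adamts proteases carry thrombospondin repeats that hold them in the matrix, where they cut proteoglycans such as versican and aggrecan, trim procollagens or cut von Willebrand factor. Adamts-like proteins share the repeats but have no protease domain. In the small vessels of the lung these systems are studied because chronic hypoxia thickens the vessel wall with muscle and matrix, and return to normal air is followed by its regression.

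The vessels came from lungs of C57BL/6J mice aged 12 to 18 weeks, were 50 to 100 µm in outer diameter and were cut from sections of 10 µm by laser microdissection. Animals had been held for 21 days at an inspired oxygen fraction of 0.10 and then in normoxia for 1 day (11 animals), 3 days (12), 7 days (12) or 14 days (10), had been held in that hypoxia without a return (23 animals), or had stayed at an oxygen fraction of 0.21 (8 animals). RNA of these 76 animals was compared on 38 Agilent arrays, with the RNA of 1 animal in each of the 2 dyes, Cy3 and Cy5. Hypoxia met normoxia directly on 8 arrays, with hypoxia in Cy5 on 4 and in Cy3 on 4. Days 1, 3 and 7 met hypoxia on 4 arrays each, and day 14 met it on 3 arrays that all carry the day 14 animal in Cy5. The labels name no genetic change in any group, and the vessels of an animal can bring neighbouring lung tissue with them.

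All values are log ratios between 2 animals or, after a fit over all arrays, between 2 conditions. The base of the logarithm is not stated. It was read as 10 from the small size of the values, which does not settle it, so folds are given for base 10 and base 2. The sign was taken as Cy5 over Cy3, as limma writes it. No source states this, so higher and lower are likely readings that are not settled, and would all swap if the ratio ran the other way. A log ratio holds no level, so the abundance of a gene, the order of the genes by abundance and the presence of vessel markers could not be read. Array medians lay between -0.00306 and 0.00678 and array SDs between 0.0742 and 0.192, and the number of arrays limits the precision. Fewer cells of a type and less RNA per cell cannot be told apart in such tissue samples. A difference was called when its adjusted p, from the moderated test of limma with Benjamini-Hochberg adjustment over all 30653 entries, was under 0.05.

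Promoters of the 2 genes called in hypoxia, Timp4 and Mmp3, and of Adamtsl2, the gene with the largest positive log ratio, are printed first because these 3 genes carry most of what follows. The sequences are the 250 bases before the annotated start, from RefSeq for build GRCm38.p6, on chr6:115252206-115252455 (minus strand), chr9:7445572-7445821 (plus strand) and chr2:27079129-27079378 (plus strand). Both strands were searched for 6 motifs, which are capitals where found. The letters TGANTCA stand for AP-1. The TATA box was written as TATAAA and the Ets core as CCGGAA. Hypoxia response elements were sought by their core, which is ACGTG in some genes and GCGTG in others. The last motif was the box named CCAAT.
Timp4: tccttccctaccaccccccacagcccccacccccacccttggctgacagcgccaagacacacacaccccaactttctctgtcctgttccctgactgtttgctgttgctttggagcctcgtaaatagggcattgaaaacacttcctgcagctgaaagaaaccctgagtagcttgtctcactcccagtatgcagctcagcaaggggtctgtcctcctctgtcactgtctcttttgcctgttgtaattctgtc
Mmp3: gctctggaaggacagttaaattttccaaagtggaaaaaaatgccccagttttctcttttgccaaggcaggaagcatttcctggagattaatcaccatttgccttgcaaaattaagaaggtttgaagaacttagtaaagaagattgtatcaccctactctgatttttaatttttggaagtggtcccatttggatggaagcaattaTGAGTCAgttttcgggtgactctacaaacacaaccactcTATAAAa
Adamtsl2: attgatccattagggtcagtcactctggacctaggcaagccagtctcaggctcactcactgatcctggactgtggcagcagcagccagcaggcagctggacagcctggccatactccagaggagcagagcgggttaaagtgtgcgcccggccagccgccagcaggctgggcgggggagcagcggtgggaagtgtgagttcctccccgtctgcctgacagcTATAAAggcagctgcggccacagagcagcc
The Timp4 window held none of these letters, the Mmp3 window an AP-1 motif and a TATA box, and the Adamtsl2 window a TATA box.

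Mmp3 lies on chromosome 9 in a run of 10 neighbouring Mmp genes, of which 8 were measured. Promoters were matched for 31 of the 46 genes (34 promoters), and the AP-1 motif, which is bound by Fos and Jun proteins, was found in 7 of these 34 (20.6%), against 6.75% of all 32851 mouse promoters in the table. All 7 belong to that run. Their AP-1 motifs are shown with 10 bases on either side, to set beside the log ratios of the same genes, and lie on the plus strand at chr9:7272469-7272495 (Mmp13), chr9:7347320-7347346 (Mmp12), chr9:7445766-7445792 (Mmp3), chr9:7464058-7464084 (Mmp1a), chr9:7502269-7502295 (Mmp10), chr9:7628126-7628152 (Mmp20) and chr9:7692017-7692043 (Mmp7). Capitals mark the motif.
Mmp13: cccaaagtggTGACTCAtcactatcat
Mmp12: acatcaacagTGAGTCAgatagaggat
Mmp3: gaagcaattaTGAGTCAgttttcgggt
Mmp1a: ttgtcaaccaTGAGTCAcatagcctct
Mmp10: agcacccatgTGAGTCAtgcttagtga
Mmp20: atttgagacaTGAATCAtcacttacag
Mmp7: agtgtgcaaaTGAGTCAcctatttcca
The motif began between 35 bases (Mmp13) and 95 bases (Mmp20) before the start. TATAAA was found in 26.5% of the family's promoters and 12.4% of all, ACGTG in 17.6% and 16.6%, GCGTG in 41.2% and 28.2%, CCGGAA in 2.94% and 12%, and CCAAT in 17.6% and 33.8%. These are matches of letters in a fixed window and not binding sites.

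The first comparison asked how the family differed between vessels of hypoxic and normoxic mice. Hypoxic vessels had less mRNA of the inhibitor Timp4 and of the stromelysin Mmp3, and no other member was called. The 2 called members of 46 are 4.35%, where 3.6% of all entries were called (2.25% lower and 1.35% higher), so the share is near that of the whole table. At an unadjusted p under 0.05 stood 10 members (21.7%), 5 higher and 5 lower, against 16.8% of entries (6.96% higher and 9.8% lower). Log ratios were negative for 29 members (63%), against 54.8% of entries, and the median member stood at -0.0082, against -0.00397 over all entries. That median was -0.0203 over single features, -0.0342 over the 25 members that passed a filter on low SD and 0.0051 with the alveolar marker mean in the fit, where alone of these it was above 0.

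Timp4 is the inhibitor with the most restricted tissue distribution of the Timp genes. Its log ratio of hypoxia to normoxia on the 8 direct arrays was -0.266, -0.185, -0.173, -0.122, -0.103, -0.101, -0.0749 and -0.0321. All 8 arrays were on the negative side, in both dye orientations. The fit gave -0.132 ± 0.0266 (SE, 8 direct arrays, limma adjusted p = 0.00375), which is 1.36-fold lower in hypoxia if the base is 10 and 1.1-fold lower if it is 2.

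Mmp3, stromelysin-1, cuts proteoglycans, fibronectin and laminin and activates other Mmp precursors. On the same arrays it read -0.222, -0.219, -0.189, -0.159, -0.152, -0.124, -0.0262 and -0.0225. It too was negative on 8 of 8 arrays, with 2 arrays close to 0. Fitted over all arrays it was lower in hypoxia by a log ratio of -0.139 ± 0.0322 (limma adjusted p = 0.0107), 1.38-fold for base 10 and 1.1-fold for base 2. Each of these genes is read by 1 feature only, so no other probe of the gene bears on it. With the 8 direct arrays alone neither passed (limma adjusted p = 0.0765 for Timp4 and 0.0781 for Mmp3). Both log ratios were the same there by design, since normoxia stands on these arrays only and their dyes are balanced.

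Markers of neighbouring tissue and of the vessel wall moved with this comparison. The mean of 17 markers of alveolar epithelium was above 0 for hypoxia on each of the 8 arrays (0.0471 to 0.161), and 9 of the 17 were called higher. In the vessel wall itself, 2 of 8 endothelial markers were called higher and 1 lower, and 4 of 8 smooth muscle markers were called lower. Over all entries 1.35% were called higher and 2.25% lower. The mean of 8 neutrophil markers was lower on 7 of 8 arrays (-0.267 to 0.133). With the alveolar mean of each array added to the fit, Timp4 kept its size at -0.132 ± 0.0418 with a limma adjusted p of 0.223, while Mmp3 shrank to -0.0515 ± 0.0466 with an adjusted p of 0.783, and 32 of the 30653 entries were called in all. The part of the neighbouring tissue or of the vessel wall cells in either difference was not tested. Across the 38 arrays, with the dye effect removed, Mmp3 ran against the alveolar mean (Pearson r = -0.697, Spearman rho = -0.718, r = -0.657 without the 2 arrays farthest from the median). For Timp4 the same r was -0.482. The arrays span all conditions and share them, so these correlations are a description.

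**Figure D1:**
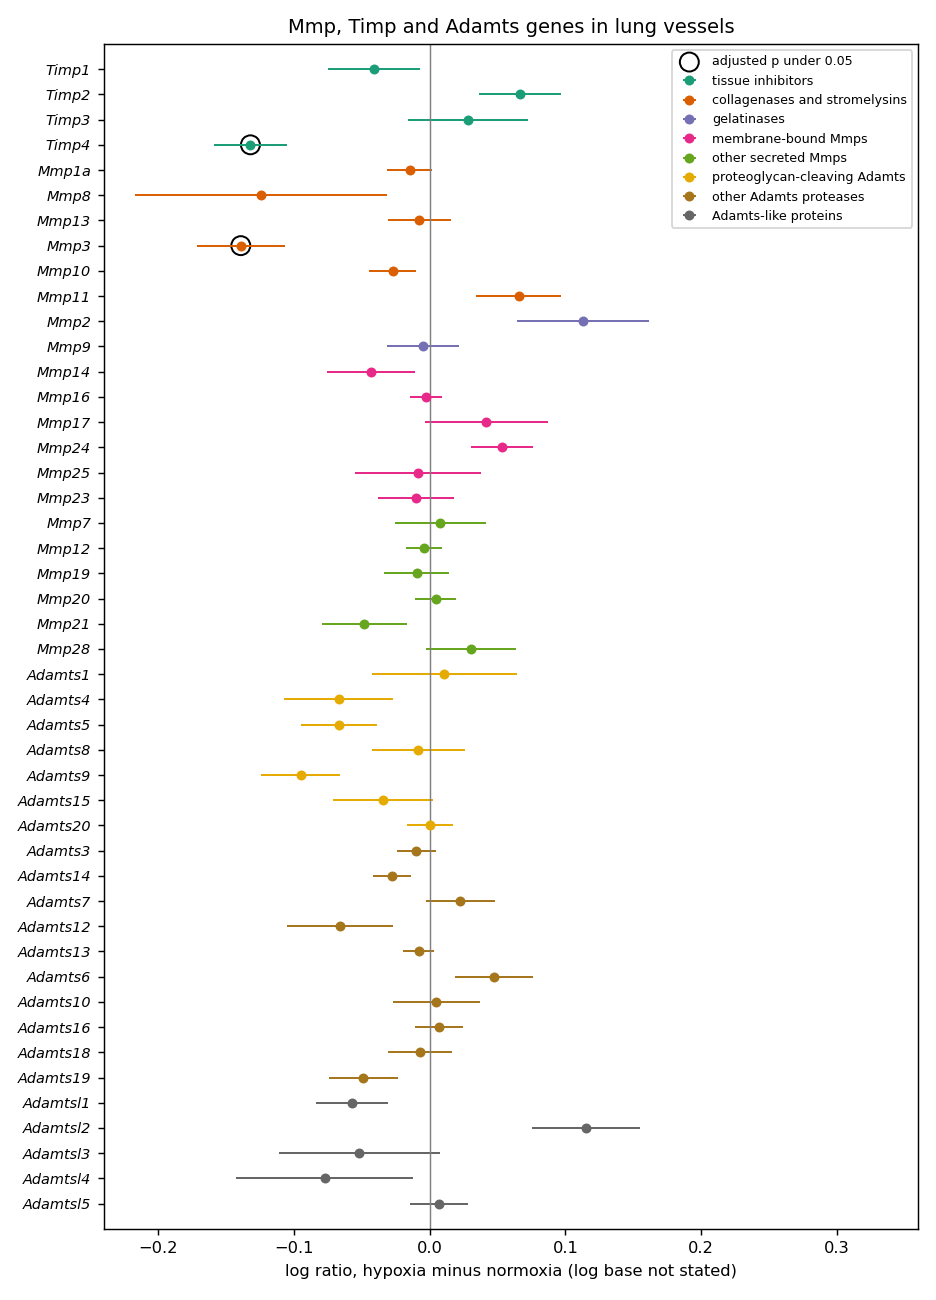
Fitted log ratio of hypoxia minus normoxia for the 46 genes, grouped and coloured by role (points, with bars of 1 SE). The 2 circled genes, Timp4 at -0.132 and Mmp3 at -0.139, passed an adjusted p of 0.05, and most other genes lie within 0.07 of 0.

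Among the other inhibitors, Timp2, which also takes part in the activation of pro-Mmp2 on the cell surface, had a positive log ratio of 0.0666 ± 0.0304 (limma adjusted p = 0.251). Its 8 arrays ran from -0.0148 to 0.206 with a median of 0.031, and 7 were above 0. Timp3, the inhibitor bound to the matrix, stood at 0.0283 ± 0.0442 with arrays on both sides of 0 (-0.165 to 0.334, median 0.00299). Timp1 averaged -0.0411 ± 0.0337 over 3 features that pointed apart, at 0.0416, -0.0311 and -0.134. Log ratios were negative for 2 of the 4 Timp genes, and Timp4 alone was called.

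Of the 6 collagenases and stromelysins, 5 had negative log ratios in hypoxia, with a median of -0.021. Mmp8, the collagenase stored in neutrophil granules, had the widest spread of the group, from -0.4996 to 0.65 over the 8 arrays (median -0.16), and its fitted -0.124 ± 0.0929 was well inside that spread (limma adjusted p = 0.555). Across the 38 arrays Mmp8 ran with the mean of the neutrophil markers (Pearson r = 0.694, Spearman rho = 0.673, r = 0.627 without the 2 farthest arrays). Mmp11, stromelysin-3, was on the positive side at 0.0657 ± 0.0312 (adjusted p = 0.275). The interstitial collagenase Mmp1a (-0.0147), the collagenase Mmp13 (-0.00772) and the stromelysin Mmp10 (-0.0273) were within 0.03 of 0. In the run on chromosome 9, 6 of the 8 measured genes were negative and Mmp3 alone was called. Mmp12, Mmp7 and Mmp20, whose promoters hold an AP-1 motif too, read -0.00413, 0.00795 and 0.00433.

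The gelatinases cut denatured collagen and basement membrane collagen. Mmp2 read 0.257, 0.208, 0.157, 0.134, 0.0842, 0.0726, -0.00215 and -0.00633 on the direct arrays. Hypoxia was thus higher on 6 arrays and level with normoxia on 2. The fit gave 0.113 ± 0.0484 (1.3-fold for base 10, 1.08-fold for base 2), which was not called (limma adjusted p = 0.211), and with the alveolar mean in the fit it was 0.0276 ± 0.0736. Mmp9, the gelatinase of neutrophils and macrophages, stood at -0.00479 ± 0.0264, with 8 arrays between -0.0684 and 0.039.

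The membrane-bound enzymes act at the cell surface, and Mmp14 is the main activator of pro-Mmp2. Mmp14 read -0.0431 ± 0.0323 in hypoxia and its arrays lay between -0.203 and 0.125. Mmp24 was positive on 6 of 8 arrays (-0.0532 to 0.173, median 0.0669) with a fitted 0.0531 ± 0.0227 (limma adjusted p = 0.211). Its 2 features stood at 0.112 and -0.00606, so 1 feature carried the value. None of the 6 membrane-bound or of the 6 other secreted Mmp genes was called, and their medians were -0.00557 and 9.73e-05.

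Of the Adamts proteases that cut versican, aggrecan and related proteoglycans, 5 of 7 were below 0 (54.8% of all entries were), with a median of -0.0342, and none was called. Adamts9, an enzyme that cuts versican and aggrecan, was negative on 8 of 8 arrays (-0.162 to -0.0119, median -0.0917) and was fitted at -0.0951 ± 0.0294, just outside the threshold (limma adjusted p = 0.0631). It passed when any of 3 arrays was left out (adjusted p from 0.0211 to 0.0498). Its 2 features gave -0.158 and -0.0321 and did not run together over the arrays. With Timp4 and Mmp3 it was 1 of 3 members with the same sign on all 8 arrays (6.52%), against 4.02% of entries. Among the aggrecanases, Adamts5 stood at -0.0668 ± 0.0279 (adjusted p = 0.197, 7 of 8 arrays negative), Adamts4 at -0.0668 ± 0.0401 and Adamts1 at 0.0108 ± 0.0535.

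The procollagen N-proteinases Adamts3 (-0.00994 ± 0.0143) and Adamts14 (-0.0278 ± 0.0141) had small standard errors and small values. Adamts13, which cuts von Willebrand factor, read -0.00814 ± 0.0113 with a 95% interval of -0.0311 to 0.0148. Its substrate gene Vwf was called lower in hypoxia at -0.113 ± 0.0205 (limma adjusted p = 0.00164). No Adamts protease was called.

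Adamtsl2, a matrix protein that binds fibrillin-1 and latent TGF-beta binding protein, had the largest positive log ratio of the family. It read 0.275, 0.274, 0.173, 0.16, 0.143, 0.011, -0.0522 and -0.0615 on the direct arrays. The values fell into 5 clearly positive arrays and 3 near or below 0. The fit gave 0.115 ± 0.0399 (1.3-fold for base 10, 1.08-fold for base 2, limma adjusted p = 0.103), so the gene was not called, although it was called when the hypoxia array numbered 1 with normoxia in Cy3 was left out (0.143, adjusted p = 0.0453). Adamtsl1 stood on the other side at -0.0574 ± 0.0265 (adjusted p = 0.257).

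The second question was whether these genes changed after the return to normoxia. No member was called on any day against hypoxia, and hardly anything else on the arrays was: 0% of entries on day 1, 0.013% on day 3, 0.0163% on day 7 and 0% on day 14. At an unadjusted p under 0.05 stood 0 of 46 members on day 1, 5 on day 3 (10.9%), 5 on day 7 (10.9%) and 1 on day 14 (2.17%), where 3.97%, 9.22%, 6.48% and 4.03% of entries did. The members' medians were -0.00815, -0.00518, -0.0013 and -0.00469 on the 4 days. The same sign on all direct arrays of a day was found for 7, 7, 7 and 14 members (15.2%, 15.2%, 15.2% and 30.4%), against 13.8%, 15.3%, 12.4% and 28.9% of entries.

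Markers of other cells moved with the days too. The 4 measured red cell markers had a mean below hypoxia on 4 of 4 direct arrays on day 3 (-0.454 to -0.0231) and on day 7 (-0.66 to -0.249), and on day 7 the haemoglobin genes Hba-a1 (-0.366), Hba-a2 (-0.431) and Hbb-bt (-0.413) were called lower (limma adjusted p = 0.0161 to 0.0164), 3 of the 5 entries called that day. The alveolar mean lay below 0 on the 4 arrays of day 7 (-0.101 to -0.0246). The endothelial mean was above 0 on the 4 arrays of day 3 (0.0182 to 0.122) and below 0 on the 4 of day 7 (-0.0596 to -0.00774). The neutrophil mean was below 0 on the 4 arrays of day 3 (-0.228 to -0.0116), and the smooth muscle mean on the 3 of day 14 (-0.0816 to -0.00834). The airway mean was above 0 on the 4 arrays of day 1 and of day 3. Other lists lay on both sides of 0 on most days. The part of these cells in the members' values was not tested.

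Timp4 had fitted log ratios close to 0 against hypoxia. They were 0.0132, -0.00306, 0.0122 and 0.0473 on days 1, 3, 7 and 14, each with an SE between 0.0259 and 0.0285. On day 7 its 4 direct arrays were all above 0, at 0.138, 0.0825, 0.0308 and 0.0176, while the arrays of the other days lay on both sides of 0. Against normoxia, a contrast that runs through hypoxia and has no array of its own, it read -0.119, -0.135, -0.12 and -0.0847 on days 1, 3, 7 and 14. The smallest limma adjusted p of these was 0.0671 on day 3. No member was called against normoxia on any day, where 0.111%, 0.783%, 0.0228% and 0.0261% of entries were.

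Mmp3 had positive log ratios to hypoxia on each day, 0.0265 ± 0.0322 on day 1, 0.0732 ± 0.0313 on day 3, 0.0817 ± 0.0316 on day 7 and 0.0571 ± 0.0345 on day 14. Its smallest limma adjusted p over these days was 0.462. The direct arrays of day 3 read 0.166, 0.0768, 0.0646 and -0.0103, and those of day 7 read 0.186, 0.0826, 0.0728 and -0.116. On each of these days 3 arrays lay above 0 and 1 below. Against normoxia Mmp3 still read -0.113, -0.0659, -0.0574 and -0.082 on days 1, 3, 7 and 14, none of them called.

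Adamtsl2 was negative against hypoxia on each day, at -0.0619 ± 0.0399 on day 1, -0.0743 ± 0.0388 on day 3, -0.0894 ± 0.0392 on day 7 and -0.117 ± 0.0427 on day 14. Its direct arrays of day 1 read -0.162, -0.105, -0.0908 and -0.0362. Those of day 3 read -0.208, -0.0767, -0.0272 and -0.0188, and those of day 7 read -0.186, -0.158, -0.125 and -0.0382. All 12 of these arrays were negative. On day 14 they were -0.121, -0.0539 and 0.174, and the 3 direct arrays alone averaged -0.000428, so the fitted day 14 value rests on arrays that join day 14 to the other days. That average still holds the dye effect (fitted at 0.0191 for Adamtsl2), since all 3 arrays carry day 14 in Cy5, while the fitted value does not. The smallest limma adjusted p of Adamtsl2 over the 4 days was 0.569. The hypoxia animals stand in both the hypoxia against normoxia and the day against hypoxia contrasts, so opposite signs of the kind seen in Mmp3 and Adamtsl2 are not independent.

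**Figure D2:**
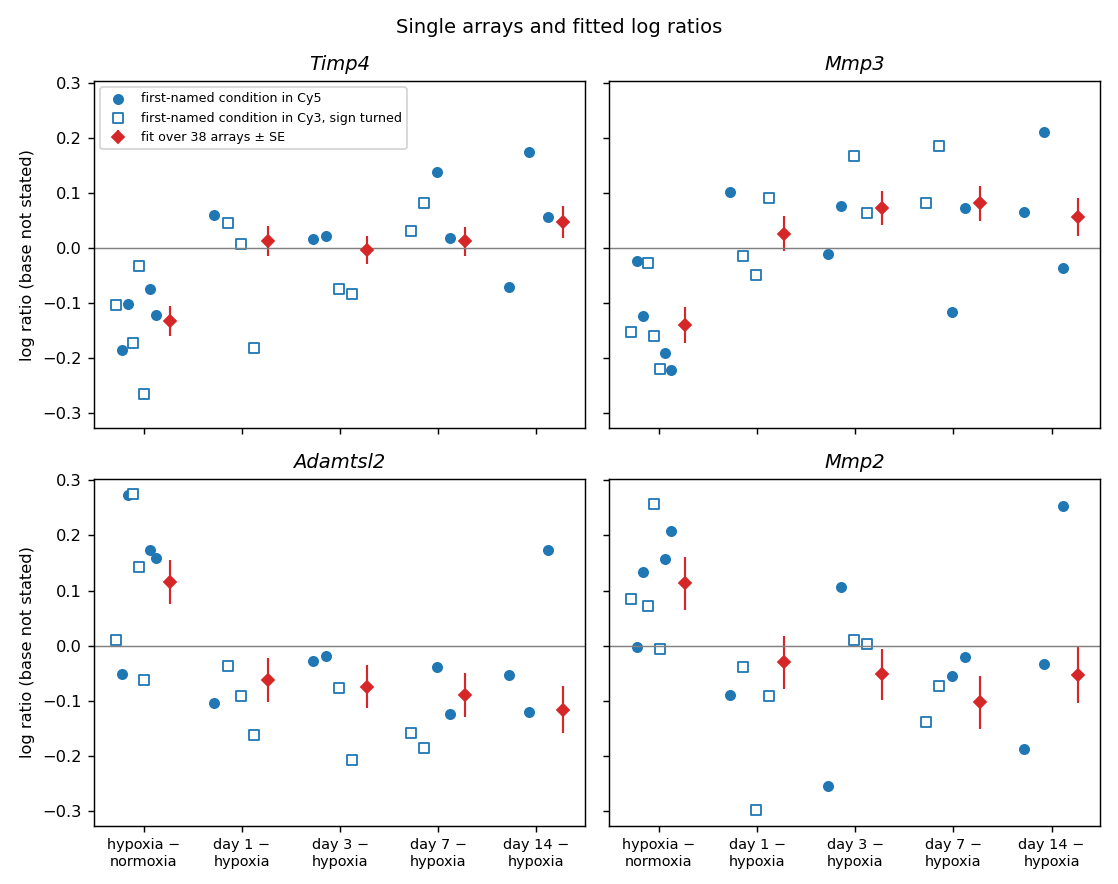
Log ratios of Timp4, Mmp3, Adamtsl2 and Mmp2 on every direct array (filled circles with the first-named condition in Cy5, open squares with it in Cy3 and the sign turned) and fitted log ratios (diamonds, bars of 1 SE) for hypoxia minus normoxia and each day minus hypoxia. Timp4 and Mmp3 lie below 0 on all 8 arrays of hypoxia against normoxia, and Adamtsl2 lies below 0 on all 12 arrays of days 1, 3 and 7.

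On day 3 the smallest p values belonged to Adamts10, which binds fibrillin microfibrils, and to Adamts15, which cuts versican and aggrecan. Adamts10 was above hypoxia on 4 of 4 arrays (0.221, 0.199, 0.108 and 0.0322, fitted 0.0806 ± 0.031, limma adjusted p = 0.406). Adamts15 was above it on 3 of 4 (0.231, 0.103, 0.0501 and -0.0429, fitted 0.0914 ± 0.0359, adjusted p = 0.414). Adamts1, named for its role, stood at 0.0974 ± 0.052, with arrays from -0.0177 to 0.487. On the negative side stood Mmp1a, below 0 on 4 of 4 arrays (-0.0377 ± 0.0161), and Timp2 (-0.0632 ± 0.0296), below 0 on 3 of 4.

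On day 7 the gelatinase Mmp2 read -0.139, -0.0731, -0.056 and -0.0215 against hypoxia, all below 0. Its fitted value was -0.103 ± 0.0475 (limma adjusted p = 0.745). The glycolipid-anchored protease Mmp17 read -0.29, -0.218, -0.152 and -0.127, and had the most negative fitted value of the day, -0.128 ± 0.0446 (adjusted p = 0.608). Its 2 features stood at -0.221 and -0.0347 on that day, so 1 feature carried most of the value. On day 14 the 3 direct arrays of Mmp17 were instead all positive (0.101, 0.0681 and 0.047) while the fit over all arrays gave -0.0658 ± 0.0486, so direct and joined arrays disagreed for that gene. The direct values still hold the dye effect (fitted at 0.01125 for Mmp17), since all 3 arrays carry day 14 in Cy5. Adamts8, which cuts proteoglycans, stood at -0.0797 ± 0.0336 on day 7 with 3 of 4 arrays below 0, and Mmp25, the other glycolipid-anchored member, at 0.0858 ± 0.0459.

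Days 1 and 14 had fewer members at small p. The smallest p on day 1 belonged to Adamts12 (-0.072 ± 0.0388), whose 4 arrays ran from -0.279 to -0.0101. The remaining members named by p on day 1 were Adamts10 (0.0443), Adamts8 (0.0392), Adamtsl1 (0.0302) and Mmp19 (-0.036). On day 14 Adamtsl1 stood at 0.0552 ± 0.0283 and Adamts18 at -0.0352 ± 0.0253, neither called. Adamts13, Adamts3 and Adamts14, the enzymes for von Willebrand factor and for procollagen, stayed within 0.02 of hypoxia on every day.

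**Figure D3:**
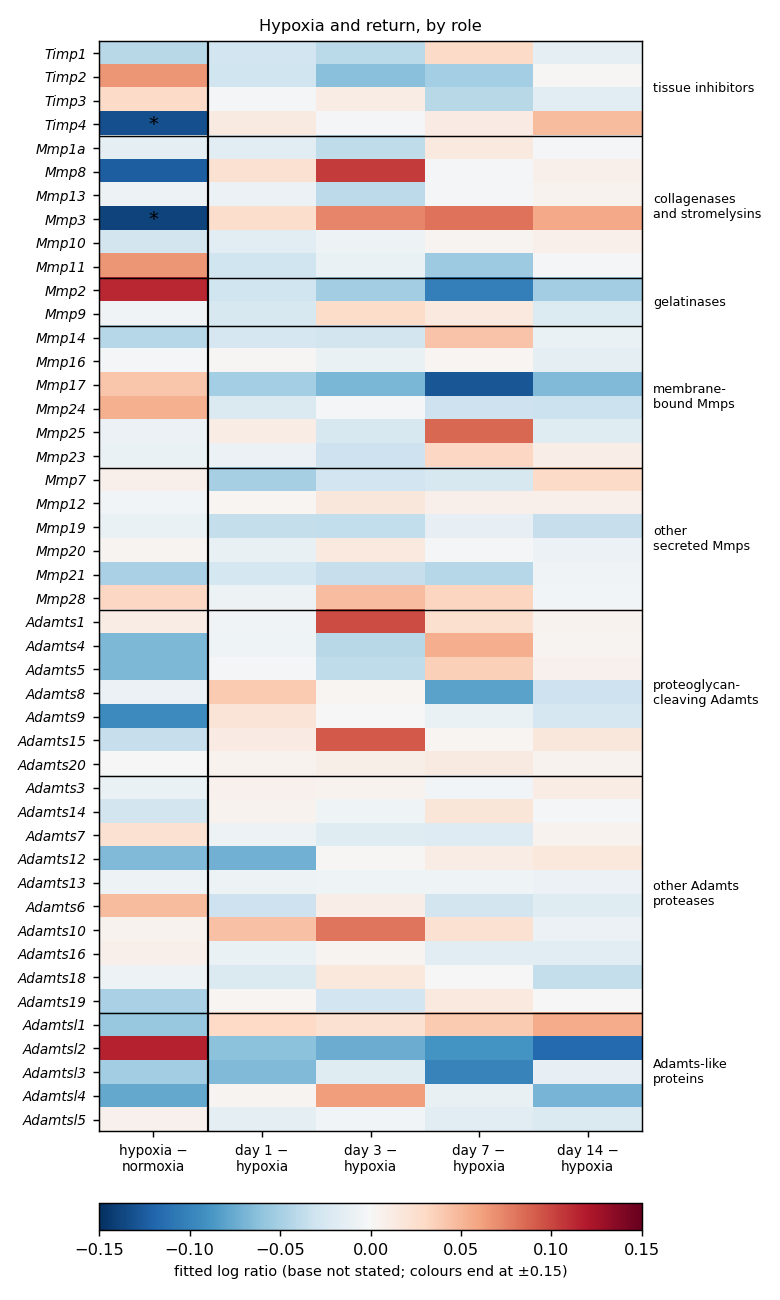
Fitted log ratios of the 46 genes for hypoxia minus normoxia (left column) and for each day minus hypoxia, grouped by role. Colour runs from blue (negative) through white to red (positive) and asterisks mark the 2 called values, both in the left column.

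Between days no member was called in any of the 6 pairs of days, where at most 0.00979% of entries were (day 7 minus day 3). That step had 8 members at an unadjusted p under 0.05 (17.4%), against 10.2% of entries. Among them Mmp25 (0.11 ± 0.0487) and Adamts4 (0.096 ± 0.0418) rested on a single array, the second that sets day 7 (Cy5) against day 3 (Cy3), where they read 0.675 and 0.618 and whose SD of 0.192 was the highest of all arrays. Without that array they stood at 0.0268 ± 0.0353 and 0.0177 ± 0.0264, and 5 members were under that p. The share of entries under that p without the array is not given here, so this count cannot be set against the whole table. Of the 5 members, 4 were among the 8 (Mmp1a, Mmp23, Adamts5 and Adamts8) and the other was Timp1 (0.0813 ± 0.0377 without the array, 0.0695 ± 0.0351 with it). Mmp1a, with the smallest p of this step, stood close together (0.0529 ± 0.0173 with the array, 0.0544 ± 0.0187 without). The genes named in this step were picked after their values in this step were seen.

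Neighbouring systems that switch the proteases on or off were also measured. In the plasminogen activator system, which yields plasmin, 2 of 7 genes were called lower in hypoxia (28.6%, against 2.25% of entries called lower). These were Plat, the tissue plasminogen activator (-0.189 ± 0.0332, limma adjusted p = 0.00119), and Serpinf2, the plasmin inhibitor alpha-2-antiplasmin (-0.101 ± 0.0256, adjusted p = 0.0193). Urokinase (Plau, 0.0674), its receptor (Plaur, 0.0323) and Plg (-0.00314) were not called. The members that fell thus include an activator and an inhibitor of the same pathway.

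The proteoglycans that Adamts enzymes cut, and their link proteins, had negative log ratios in 6 of 6 genes, with a median of -0.042. Over all entries 54.8% were negative. Vcan, versican, was called lower in hypoxia (-0.0935 ± 0.026, limma adjusted p = 0.0351), and Acan (-0.0446), Ncan (-0.136), Hapln1 (-0.0304) and Hapln3 (-0.0394) reached an unadjusted p under 0.05 only. Of all entries 2.25% were called lower, and 9.8% were lower at that unadjusted p. Of 10 AP-1, Ets and Runx factors, Ets1 was called higher in hypoxia (0.125 ± 0.037, adjusted p = 0.0495), where 1.35% of all entries were. Of 7 AP-1 genes none was called, with 5 negative (Fos at -0.171 ± 0.071, Fosb at -0.107 ± 0.0593, Jun at -0.0968 ± 0.032, Fosl2 at -0.0792 ± 0.0299 and Junb at -0.0421 ± 0.0214) and 2 positive (Jund at 0.0491 ± 0.0232 and Fosl1 at 0.0171 ± 0.04). No gene was called among 4 proprotein convertases, 10 other inhibitors, inducers and clearance receptors, 10 Adam proteases, 8 genes of the cathepsin list or 5 of the procollagen C-proteinase list. Closest were Bmp1, the procollagen C-proteinase, at 0.0859 ± 0.0276 (limma adjusted p = 0.0747), and Spock2, at 0.102 ± 0.0342 (adjusted p = 0.0901). On days 1, 3, 7 and 14 no gene of these lists was called against hypoxia.

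Many of the 46 genes were read by features that did not run together. Of the 24 genes with several features, 17 had at least 1 pair of features with a negative correlation over the 38 arrays, and 12 had all features on the same side of 0 in hypoxia minus normoxia. Only Adamts8 (r = 0.82) and Adamts1 (r = 0.753) had all their features above an r of 0.5. Averaging such features pulls a gene towards 0, as for Mmp17, whose features stood at 0.144 ± 0.0803 and -0.0605 ± 0.0267 in hypoxia. When single features were tested, the features of Timp4 and Mmp3 were the 2 of 83 called (2.41%), against 3.22% of all 45218 features.

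**Figure D4:**
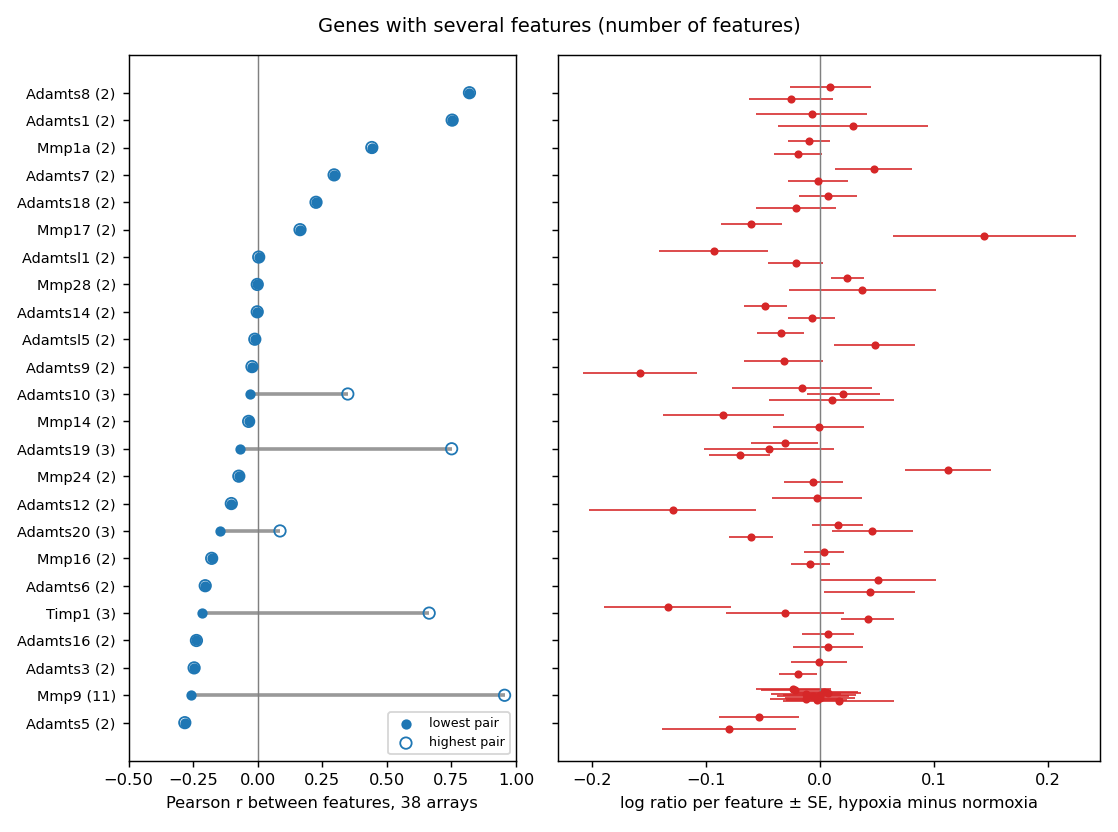
Left, lowest and highest Pearson correlation over 38 arrays between the features of each of the 24 genes with several features. Right, log ratio of hypoxia minus normoxia for each feature (points, with bars of 1 SE). Genes are ordered by the lowest correlation, from Adamts8 at 0.82 to Adamts5.

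Mmp9 was read by the most features of any member. Of its 11 features 10 ran closely together (pairwise r from 0.818 to 0.956, median 0.904) and behaved as repeats of a probe, although the sources used here give no probe sequence. Their SD within an array was 0.00935 to 0.0478 (median 0.0268), against an SD of 0.0837 between arrays for their mean. The remaining feature did not follow them (r = -0.217). In hypoxia minus normoxia the repeats averaged -0.00692 and the other feature 0.0165, and on day 14 minus hypoxia -0.0338 and 0.118. Mmp9 was not called in either reading.

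**Figure D5:**
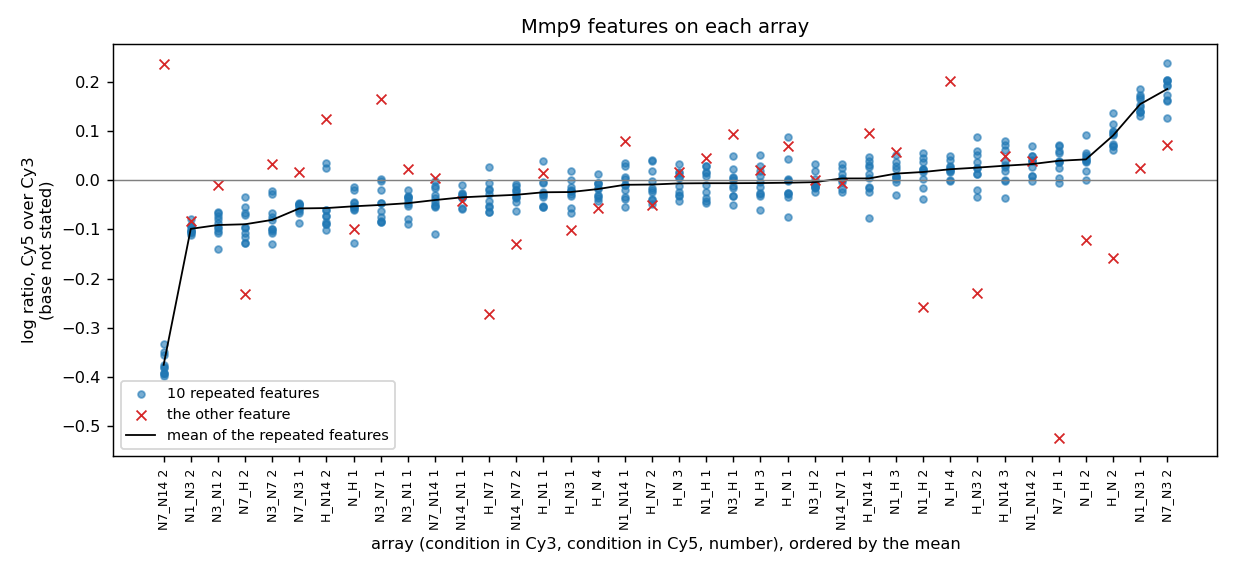
Deposited log ratios (Cy5 over Cy3) of the 11 Mmp9 features on each of 38 arrays, ordered by the mean of the 10 repeated features (line). The repeats (circles) stay close to each other on every array, with a median SD of 0.0268, and the other feature (crosses) does not follow the line.

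Across the 38 arrays, with the dye effect removed, the 1035 pairs of members had a median r of 0.0161 and a median absolute r of 0.132. An r above 0.5 was found for 5 pairs and an r below -0.5 for 7. The strongest relation was negative, between Timp3 and Mmp14 (r = -0.723, rho = -0.605, r = -0.719 after removal of the conditions too). Without the 2 farthest arrays r was -0.574, and the first array with hypoxia in Cy3 and day 3 in Cy5 was the farthest for both genes. The relation came from 1 of the Mmp14 features (r = -0.702) more than from the other (r = -0.233). Mmp7 and Mmp20, neighbours on chromosome 9, had an r of 0.533 and a rho of 0.503 (r = 0.546 without the 2 farthest arrays). Adamts1 and Adamts15 had an r of 0.506 and a rho of 0.513 (r = 0.391 without the 2 farthest arrays). The highest value, 0.625 for Mmp25 and Adamts4, rested on the array named above, since rho was 0.0653 and r was -0.0373 without the 2 farthest arrays. Adamts4 with Adamts19 (r = 0.586, rho = 0.179) and with Mmp10 (r = 0.559, rho = 0.242) share that array. Mmp9 with Adamts5 (r = -0.553) and Mmp13 with Adamts1 (r = -0.542) came next among the negative pairs. Without the 2 farthest arrays the first stood at -0.525 and the second at -0.128. The relation of Mmp9 with Adamts5 lay in 1 of the 2 Adamts5 features (r from -0.558 to -0.46 with the 10 Mmp9 repeats), while the other had r from -0.101 to 0.071.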

How the data were processed

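The deposited table holds a log ratio between the dyes for every feature of every array. Limma is the tool named for the authors' work, per the submitters' processing notes. Background and dye correction and the base of the logarithm were not given in the sources used here, so the deposited ratios were taken as log10 from their small size (median array SD 0.114, largest value 1.12), which does not settle the base. Slide, scan date and brightness were not used here, so no batch was tested.

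Missing values removed 2 of 45220 features. Symbols came from the platform annotation (33653 features with 1 symbol, 56 with several, 11511 with none), features of a gene were averaged, and unnamed features stayed as entries. The 38 arrays entered a single linear model in limma 3.58.1 (lmFit, eBayes, R 4.3.3) that had a dye term and 5 terms for the other conditions relative to hypoxia (32 residual degrees of freedom). Tests were two-sided and adjusted over all entries in each of 12 contrasts. Each channel is a separate animal, so p values set a log ratio against a spread between animals, estimated over all 38 arrays together. Replicate numbers do not pair animals: over the 15 pairs of arrays with the same conditions, opposite dyes and the same number, correlations of deviations lay between -0.222 and -0.0209.

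Members, lists and tests were chosen with earlier results of these data known. Named were members past the threshold, the 3 with the smallest p in each direction for hypoxia and each day, and Timp1 to Timp4, Mmp2, Mmp9, Mmp14, Adamts1, Adamts4, Adamts5, Adamts3, Adamts14 and Adamts13 by role. The marker lists covered alveolar epithelium, macrophages, neutrophils, smooth muscle, fibroblasts, endothelium, airway epithelium, mesothelium and red cells. Of the lists not described above for hypoxia minus normoxia, 2 of 7 macrophage markers were called higher in hypoxia (1.35% of all entries were). No fibroblast, airway, mesothelial or red cell marker was called in that comparison. The fit was tested on simulated data: for hypoxia minus normoxia a change of 0.1 was recovered in 48.8% of 80 entries and a change of 0.2 in 90% of 80, and for day 7 minus hypoxia in 32.5% and 81.2%, with 6 and 2 false calls among 30653 entries. The simulated noise was normal, independent between entries and without noisier arrays. Far fewer entries were changed than were called in hypoxia minus normoxia. These shares test the fit and are not the recovery in the real data. Promoters are RefSeq sequences of GRCm38.p6.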

Additional observations from a re-analysis of the deposited data

Results flagged for a closer look

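Of 74 sets of direct arrays examined for a value far from the rest, 4 held such a value, where chance gives about 1 in 20. In hypoxia minus normoxia, Timp3 read 0.334 on the third array with normoxia in Cy3, and the other 7 arrays lay between -0.165 and 0.0541. In day 3 minus hypoxia, Timp2 read 0.138 on the first array with hypoxia in Cy3, and the others lay between -0.0972 and -0.0643. In day 7 minus hypoxia, Mmp25 read 0.193 on the second array with hypoxia in Cy3 (others -0.0231 to 0.00867), and Adamts4 read 0.138 on the second array with day 7 in Cy3 (others 0.00727 to 0.0218). None of these contrasts was called.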

How the results depend on the processing

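The 2 calls in hypoxia minus normoxia, Timp4 and Mmp3, remained without the dye term, with arrays scaled or centred, with single features, with the feature of largest SD, with a filter on low SD (25 of 46 members passed it), with robust empirical Bayes and with array weights. With the replicate number as a block the limma adjusted p was 0.00408 for Timp4 and 0.0146 for Mmp3, and no other call changed. The count was 0 with the 8 direct arrays alone, where 103 entries were called and fewer arrays give fewer degrees of freedom (limma adjusted p = 0.0765 for Timp4 and 0.0781 for Mmp3). The log ratios were the same there by design, since normoxia stands on these arrays only and their dyes are balanced. The count was also 0 with the alveolar mean as a covariate (values in the report), where the cause was not tested. Leaving out each array in turn kept both genes called: Timp4 stayed between -0.149 and -0.114 and Mmp3 between -0.157 and -0.127, with the count at 2, or at 3 where Adamts9 or Adamtsl2 also passed (Adamts9 without array 1 or 2 with day 3 in Cy3 and hypoxia in Cy5, or array 4 with hypoxia in Cy3 and normoxia in Cy5, adjusted p = 0.0498, 0.0211 and 0.0473). Leaving out an array without normoxia cannot move these log ratios and changes only the estimate of their spread. For day 3 minus normoxia the count ranged from 0 to 1: without array 1 with hypoxia in Cy3 and day 7 in Cy5, Timp4 passed (-0.142, adjusted p = 0.0444). Over the named genes and contrasts, 1142 values under other settings kept their side of the threshold and 4 lost it, and 4023 kept it and 5 gained it with an array left out. None changed sign while called. The median of all members in hypoxia minus normoxia was -0.0203 over single features, -0.0342 with the filter and 0.0051 with the alveolar covariate. For Mmp9, averaging its repeats first, or using them or the other feature alone, alternatives chosen after seeing the data, gave no call. Changes of about 0.05 were seldom recovered on simulated data: 2.5% of 40 entries changed by that size were called in hypoxia minus normoxia. These entries were drawn at random. Recovery depends on the SE of each gene, so the share does not hold for members with a small SE, such as Adamts13, Adamts3 and Adamts14. The authors' own settings before deposit could not be varied.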
